A study of Xenopus tropicalis with 192 samples.

Results

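DNA methylation of hindlimb webbing skin was compared between a pair of Xenopus tropicalis strains of similar adult age. The strain labelled CMV MEM GFP gave 13 frogs of 841 days (2.30 years), and the strain labelled OLIG2 F1 gave 6 frogs of 899 days (2.46 years). These 19 frogs, of 192 in the series, were chosen by their strain and age labels alone, and all 6717 measured CpGs were examined. All animals of the series share a Nigerian background. Each strain was held in a single tank, so that strain, tank and the 58 days between the ages cannot be told apart. All 19 frogs were sequenced on the same lane. Libraries were hybridized to the capture probes in pools, and the pool of each frog is not known here, so that pool and strain may coincide. The labels give neither the sex of a frog nor the clutch it came from, and they do not say what the words OLIG2 F1 stand for beyond the name. No transcripts were measured, so the tissue could not be checked against expressed marker genes.

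In vertebrates most CpGs of the genome are methylated, and regions that control genes are often the exception. After bisulfite treatment an unmethylated cytosine appears as T in the sequence, whereas a methylated one stays C. The methylation level is the fraction of reads with C, from 0 to 1. A C that is replaced by T in the DNA of a frog is read in the same way as an unmethylated C. A frog with such a change on a single chromosome copy would have a level near the middle of the scale. No genotypes were used here, so that at CpGs with values at 0, near the middle and near 1 methylation and DNA sequence cannot be told apart.

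The strains differed most at CpGs where all frogs of CMV MEM GFP, or some frogs of OLIG2 F1, sat at or near 0. The capture probes around 6 such CpGs are shown because they held the largest differences, 3 in each direction, among CpGs of this kind. The probes are in lower case as the study lists them, 5′ to 3′, each CpG of this kind is in capitals, and positions count from 1 on genome v10.0. On this numbering the position given for a CpG falls on the G of the pair (3148 of 3179 pairs of a CpG and a probe had CG there), and which of the tables carries the offset was not resolved. The strand is not given in the sources used here.
near ppm1k, chr1:79103954-79104073: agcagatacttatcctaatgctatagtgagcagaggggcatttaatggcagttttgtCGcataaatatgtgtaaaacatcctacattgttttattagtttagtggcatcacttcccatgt
stpg2, chr1:75272464-75272583: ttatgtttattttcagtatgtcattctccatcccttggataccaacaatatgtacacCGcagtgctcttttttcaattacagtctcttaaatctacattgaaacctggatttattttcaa
near slc4a4, chr1:81321980-81322099: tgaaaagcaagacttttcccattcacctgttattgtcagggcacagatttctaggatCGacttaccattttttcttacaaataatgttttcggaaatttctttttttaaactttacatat
near siah1, chr4:74015230-74015349: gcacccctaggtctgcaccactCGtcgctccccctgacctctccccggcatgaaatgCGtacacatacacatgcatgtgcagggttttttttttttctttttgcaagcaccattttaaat
near adgrl2, chr4:78311686-78311805: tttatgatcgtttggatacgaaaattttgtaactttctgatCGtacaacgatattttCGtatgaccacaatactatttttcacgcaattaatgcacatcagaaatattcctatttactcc
faf1, chr4:96061874-96061993: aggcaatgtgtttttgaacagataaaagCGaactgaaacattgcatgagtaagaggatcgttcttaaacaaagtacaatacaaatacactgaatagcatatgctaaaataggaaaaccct

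At Chr1:79104012, 5350 bp from ppm1k, which encodes a mitochondrial phosphatase of branched-chain amino acid breakdown, all 13 CMV MEM GFP frogs had a value of 0. The OLIG2 F1 frogs 1 to 6 had values of 0.480, 0.943, 0.503, 0.922, 0.972 and 0.941. At Chr1:75272522, inside stpg2, a gene named for a sperm-tail repeat protein, the highest CMV MEM GFP value was 0.0045, and the OLIG2 F1 values were 0.562, 0.922, 0.516, 0.909, 0.942 and 0.889. The same OLIG2 F1 frogs, 1 and 3, were at the middle of the scale at both CpGs and the other 4 near the top. Chr1:81322038, 12644 bp from slc4a4, a sodium bicarbonate cotransporter gene, gave the same order, with 0.504 in frog 1, 0.496 in frog 3 and 0.927 to 0.943 in the others. Differences were tested with limma on the log2 logit, log2((m + 0.001)/(1 - m + 0.001)), of each fraction m. Near ppm1k the difference was 12.72 ± 0.56 (SE, adjusted p = 9.36e-13), and beside a group at 0 its size depends on the offset of 0.001.

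The opposite direction was seen on chromosome 4. At Chr4:74015253, 20785 bp from siah1, a ubiquitin ligase gene, the CMV MEM GFP frogs lay between 0.835 and 0.924, with a median of 0.893. The OLIG2 F1 frogs had 0.510, 0, 0.426, 0.429, 0 and 0.480, so that frogs 2 and 5 had no methylated reads. At 35 bp from it, at Chr4:74015288 and within the same probe, all 6 OLIG2 F1 frogs lay between 0.930 and 0.972. There it was the CMV MEM GFP frogs that fell into levels, with frogs 1, 8 and 9 at 0, frogs 3 and 13 at 0.969 and 0.932, and the other 8 between 0.400 and 0.505. A second such pair lies 344856 and 344840 bp from adgrl2, which encodes a latrophilin. At Chr4:78311728 OLIG2 F1 frogs 2 and 5 were again at 0, the other 4 lay between 0.475 and 0.535, and the CMV MEM GFP frogs lay between 0.853 and 0.971. At Chr4:78311744 frogs 1, 8 and 9 of CMV MEM GFP were again the low ones, with 0, 0.0045 and 0. At Chr4:96061903, inside faf1, which encodes a Fas-associated factor, 3 OLIG2 F1 frogs (1, 2 and 5) had 0 and the others 0.453 to 0.511. All CMV MEM GFP frogs lay between 0.80 and 0.957 there.

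CpGs of this kind were set apart with a mixture filter, which removes a CpG where 3 Gaussian components fit the 192 frogs much better than 1 and where some frog lies below 0.006. It removed 542 of the 6717 CpGs. Of these, 259 had a value below 0.006 in at least 1 of the 19 frogs, 233 in a CMV MEM GFP frog and 86 in an OLIG2 F1 frog. A CMV MEM GFP frog had 60 to 142 CpGs below 0.006 in all, with a median of 80. An OLIG2 F1 frog had 19 to 42, with a median of 30, and the groups did not overlap. The means were 89.9 ± 25.3 (SD, n = 13) and 30.3 ± 9.1 (SD, n = 6), with a two-sided exact permutation p of 3.69e-05, the smallest that these group sizes allow. This count was chosen after the values had been seen. All 13 CMV MEM GFP frogs were below 0.006 at 34 CpGs, and all 6 OLIG2 F1 frogs at 4, each of which was also among the 34.

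Over all CpGs, mean methylation was compared between the strains by limma on the log2 logit, with Benjamini-Hochberg adjustment over 6717 CpGs and a threshold of 0.05. This called 497 CpGs, 7.4% of those tested. At 273 of them (4.06%) methylation was higher in OLIG2 F1 and at 224 (3.33%) lower. The mixture filter left 356 of the called CpGs, 5.77% of the 6175 CpGs it left, with 185 higher and 171 lower in OLIG2 F1. The other 141 were 26% of the CpGs it removed. A difference of mean fractions of at least 0.1 was seen at 339 called CpGs (5.05% of all), 193 higher and 146 lower, and one of at least 0.3 at 118, of which the filter left 25. The 13 and 6 values did not overlap at 165 CpGs (2.46%), 124 of them higher in OLIG2 F1. The median difference over all CpGs was 0.11 on the log2 logit scale, higher in OLIG2 F1. When each frog was centred on its own median, a choice made after the data were seen, 264 CpGs were higher and 432 lower, so that the balance of directions changed with the centring. Of the 497 calls, 446 were kept when centred. The 16 graded CpGs and the 6 filter-removed CpGs had been picked as the largest called differences, and they kept their calls and directions when centred. Single CpGs of the regions and gene lists were not followed under centring.

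**Figure D1:**
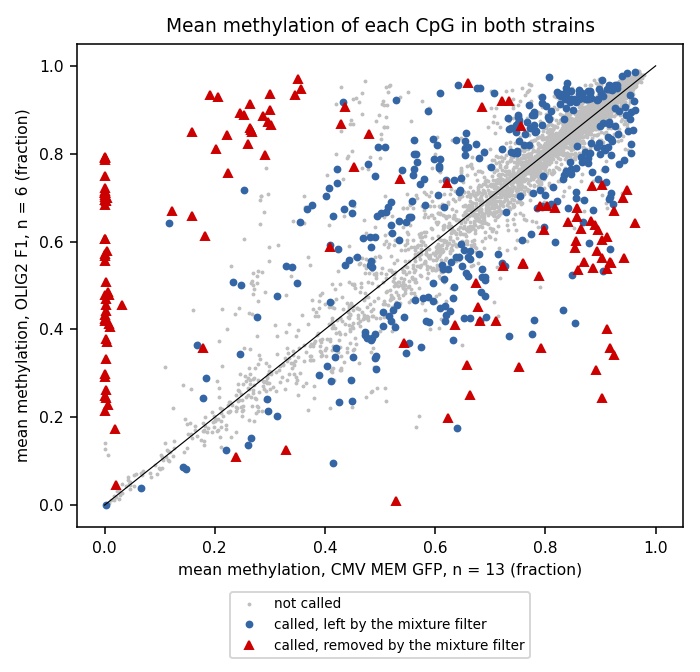
Mean methylation (fraction) of each of the 6717 CpGs in CMV MEM GFP (horizontal axis, n = 13) and OLIG2 F1 (vertical axis, n = 6), with a line of equality. Grey points were not called, blue circles are the 356 called CpGs left by the mixture filter and red triangles the 141 called CpGs it removed, some of which lie at 0 on the horizontal axis.

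The 34 CpGs at which every CMV MEM GFP frog was below 0.006 lay on 7 chromosomes. Chromosome 1 held 18 of them, chromosome 2 held 6, and chromosomes 3 and 7 held 3 each. Of the 18, 16 lay between Chr1:70087133, 186568 bp from ndst3, and Chr1:134254243, inside rmi1, whose product belongs to a complex that resolves recombination intermediates. At the 9 CpGs from Chr1:70087133 to Chr1:83365070, 32485 bp from the ephrin receptor gene epha5, OLIG2 F1 frogs 1 and 3 were the low ones. Frog 2 was high, at 0.764 to 0.958, at all 9. From Chr1:101406540, 18.0 Mb farther along, frog 2 was among the low frogs, with 0.426 there, 0.461 at the next CpG and 0.511 near mob3a, whereas frogs 4, 5 and 6 had 0.923, 0.986 and 0.969 at the first of these. At Chr1:110947799, inside LOC100144954, frog 5 had moved as well, from 0.969 near mob3a to 0.435, and frogs 4 and 6 remained at 0.888 and 0.889. At Chr1:105542871, inside shc2, which lies between these, the values were less clearly split, from 0.253 to 0.614. The set of frogs 4 and 6 above the other 4 was found again at both CpGs of rmi1, 23.3 Mb farther. At the last 2 of the 18, Chr1:187098035 and Chr1:189330568, the split was another one. OLIG2 F1 frogs 1 and 5 had 0.378 to 0.435 there, and frogs 2, 3, 4 and 6 had at most 0.00738. Thus over the 16 CpGs the same frogs were low at CpG after CpG, and the set of low frogs changed at 2 places. These runs of CpGs were picked out after their values were seen and are given as a description.

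A longer run of the same kind lay on chromosome 4, this time among the CMV MEM GFP frogs. At 23 CpGs from Chr4:94222737, 166075 bp from the forkhead factor gene foxd2, to Chr4:123195817, inside the protease gene tmprss6, the 13 frogs fell into the same 3 classes. Frogs 1 and 9 were below 0.006 at all 23, with highest values of 0.0027 and 0.00477. Frogs 3, 5 and 13 had medians of 0.918, 0.927 and 0.920 over the 23 CpGs. The other 8 frogs had medians of 0.440 to 0.484. At 8 CpGs from Chr4:81801723 to Chr4:88267508 the classes were the same except for frog 8, which was below 0.006. Near foxd2 it was at 0.402. At 9 CpGs from Chr4:74015288 to Chr4:79883360, 9651 bp from the prostaglandin receptor gene ptgfr, frog 5 differed as well, with 0.475 at the last of these, 0.952 at Chr4:81306447, inside tyw3, and 0.879 at Chr4:81801723. Of these 40 CpGs 0 were called between the strains by limma, although 29 had an unadjusted p under 0.05 and 7 were called by an exact rank-sum test. A different set of frogs, 1, 5, 7, 8, 9 and 11, was below 0.006 at 10 CpGs from Chr4:35367978 to Chr4:70773216, inside znf536. All OLIG2 F1 frogs lay between 0.841 and 0.916 at the latter, and 4 of these 10 CpGs were called, beside 26% of all CpGs that the filter removed.

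**Figure D2:**
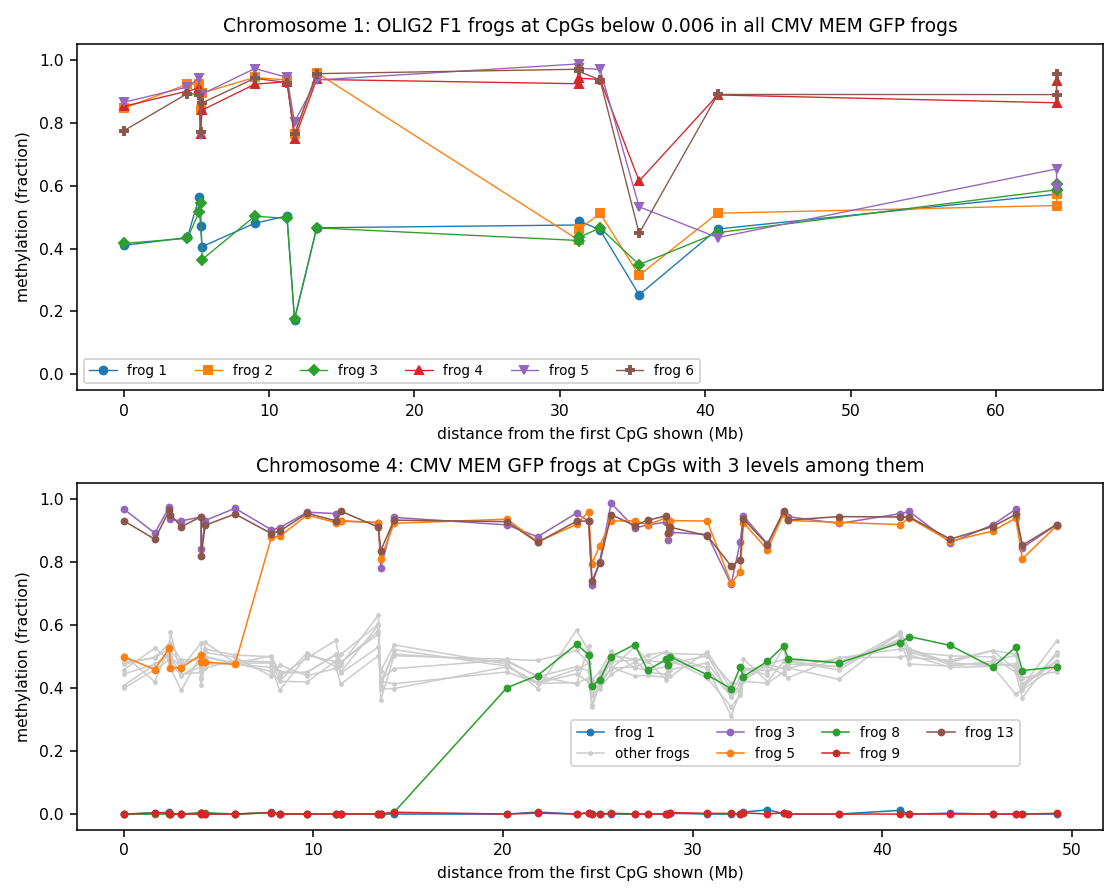
Methylation (fraction, vertical axes) against the distance along the chromosome from the first CpG shown (Mb, horizontal axes), with 1 line per frog. The upper panel shows the 6 OLIG2 F1 frogs at 16 CpGs of chromosome 1 that were below 0.006 in every CMV MEM GFP frog, where frogs 2 and then 5 leave the high level, and the lower panel shows the 13 CMV MEM GFP frogs at 44 CpGs of chromosome 4, where frogs 5 and then 8 move up by 1 level.

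Mirrored pairs were found as well. On chromosome 2, at Chr2:94378738, 3457 bp from the DNA repair gene rad51d, the OLIG2 F1 frogs had 0, 0.496, 0.943, 0.941, 0.948 and 0. At Chr2:95161321, inside scml2, a gene of the Polycomb family, they had 0.921, 0.575, 0, 0, 0 and 0.907. Each frog at the top of one CpG was at the bottom of the other, and frog 2 was in the middle at both. The CMV MEM GFP frogs were uniform at both CpGs, at most 0.00171 near rad51d and between 0.823 and 0.951 in scml2. On chromosome 1, at Chr1:69914249, 18410 bp from ndst4, CMV MEM GFP frogs 1, 2, 5, 12 and 13 had 0.938 to 0.973 and the other 8 had 0.437 to 0.548. At Chr1:72535307, inside arhgef38, the same 5 frogs had 0, the other 8 had 0.455 to 0.533, and all 6 OLIG2 F1 frogs had 0.905 to 0.953. In OLIG2 F1 a further uniform pattern covered 12 CpGs of chromosome 5 over 44.1 Mb, with frog 3 at 0.7 or above and the other 5 between 0.3 and 0.7, and 10 of these 12 were called, beside 26% of all filter-removed CpGs. This pattern was picked after its values were seen, and of the 20 CpGs of the most frequent split pattern of OLIG2 F1 on chromosome 1, with frogs 3 and 6 in the middle, 0 were called by limma or by the exact rank-sum test and 0 had an unadjusted p under 0.05.

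Called CpGs were most frequent where the median level in other adults was low. Of the 551 CpGs with a median below 0.5 in the 168 adults of other groups, 69 were higher and 51 lower in OLIG2 F1, together 21.8%. The share was 14.8% of 1319 CpGs between 0.5 and 0.8, 6.82% of 1525 between 0.8 and 0.9, 2.86% of 2275 between 0.9 and 0.95, and 1.24% of 1047 above that. By chromosome it ran from 5.56% (111 of 1998 CpGs on chromosome 1) to 9.62% (63 of 655 on chromosome 4). Inside the span of an annotated gene 223 of 2533 CpGs were called (8.8%) and outside 274 of 4184 (6.55%). These shares were not tested against each other, since neighbouring CpGs are not independent. They include the CpGs that the filter removed, of which 26% were called, and they were not split by the filter.

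From the 497 called CpGs, those left by the filter, with all 19 values at 0.006 or above and no overlap of the groups, were selected. They numbered 101, in 45 regions for those higher in OLIG2 F1 and 26 for those lower. Of all 165 CpGs without overlap 164 were called, so that the lack of overlap nearly fixes the call and the 101 are no separate test. A region holds CpGs at most 200 bp from the next. The 8 with the largest difference in each direction were followed further, 1 per region. These CpGs are called graded only because the filter left them and all 19 values were at 0.006 or above. At several of them the frogs of a strain still fell into separate levels. The filter needs a frog below 0.006, so it cannot remove levels that stay above it. Methylation and DNA sequence therefore cannot be told apart at these CpGs either. Probes around 5 of them are shown, because they hold differences in both directions. The named CpG is in capitals, and for lmo3 every measured CpG that lies in the probe.
near lmo3, chr3:422234-422353: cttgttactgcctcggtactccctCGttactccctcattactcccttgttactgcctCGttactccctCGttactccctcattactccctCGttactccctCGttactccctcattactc
LOC116408640, chr2:174347386-174347505: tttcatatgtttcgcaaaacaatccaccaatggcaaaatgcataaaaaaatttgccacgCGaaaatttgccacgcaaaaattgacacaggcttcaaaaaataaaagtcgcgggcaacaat
LOC108647378, chr4:23562847-23562966: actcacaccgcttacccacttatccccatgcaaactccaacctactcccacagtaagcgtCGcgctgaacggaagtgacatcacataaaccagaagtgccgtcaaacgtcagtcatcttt
near LOC116408260, chr1:4705229-4705348: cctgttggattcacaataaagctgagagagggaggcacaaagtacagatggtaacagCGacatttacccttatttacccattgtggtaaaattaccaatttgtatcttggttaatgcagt
near kiss1, chr2:68054506-68054625: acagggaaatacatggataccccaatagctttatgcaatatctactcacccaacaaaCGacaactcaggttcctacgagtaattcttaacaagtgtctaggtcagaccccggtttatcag

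The largest graded difference was at Chr8:83795784, 374 bp from sel1l, which encodes an adaptor for the degradation of misfolded proteins of the endoplasmic reticulum. The CMV MEM GFP frogs ran from 0.046 to 0.310 with a median of 0.102, and the OLIG2 F1 frogs had 0.771, 0.50, 0.452, 0.832, 0.823 and 0.479. Every OLIG2 F1 frog was above every CMV MEM GFP frog, and within OLIG2 F1 frogs 1, 4 and 5 stood above the other 3. The difference was 0.526 in the mean fraction and 4.04 ± 0.44 (SE) on the log2 logit scale (limma, adjusted p = 2.42e-06). At Chr4:28533790, inside LOC101734651, the lowest, median and highest values were 0.161, 0.254 and 0.356 in CMV MEM GFP and 0.523, 0.745 and 0.785 in OLIG2 F1. Chr6:7281237, 26467 bp from oxsr1, a kinase gene of the pathway that sets ion transport, ran from 0.377 to 0.763 in CMV MEM GFP and from 0.885 to 0.937 in OLIG2 F1. In that case the spread lay almost wholly in CMV MEM GFP, with an SD of 0.139 against 0.019. In the region near oxsr1 1 of 8 CpGs was called, and 2 of 2 in each of the regions near sel1l and in LOC101734651.

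Chr2:174347446, inside the non-coding gene LOC116408640, differed with little spread in either strain. It lay at 0.642 ± 0.037 (SD, n = 13) in CMV MEM GFP and at 0.957 ± 0.013 (SD, n = 6) in OLIG2 F1, a difference of 3.67 ± 0.16 (SE) on the log2 logit scale (limma, adjusted p = 7.55e-13). In its region 2 of 7 CpGs were called. Chr4:33076939, 23498 bp from LOC116410346, was tight in CMV MEM GFP, from 0.446 to 0.527, whereas OLIG2 F1 frogs 1 and 3 had 0.63 and 0.627 and the other 4 had 0.874 to 0.950. At Chr6:18644800, inside LOC101734054, it was the same frogs 1 and 3 that stood out, now at the top with 0.945 and 0.936, above 0.596 to 0.622 in the other 4 and 0.363 to 0.444 in CMV MEM GFP. In this region 5 of 10 CpGs were called, all higher in OLIG2 F1.

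A pair of CpGs 615 bp apart in the non-coding gene LOC108647378 on chromosome 4 moved in opposite directions. At Chr4:23562908 OLIG2 F1 was higher, with a median of 0.719 (0.693 to 0.838) against 0.483 (0.305 to 0.504). At Chr4:23562293 it was lower, with a median of 0.368 (0.288 to 0.390) against 0.562 (0.489 to 0.647). At the former, CMV MEM GFP frogs 3, 5, 7, 11 and 13 had 0.305 to 0.321 and the other 8 had 0.473 to 0.504. At the latter the same 5 frogs had 0.585 to 0.647 and the other 8 had 0.489 to 0.578. OLIG2 F1 frog 2 was the highest of its strain at the former and the lowest at the latter. In the region of the former 2 of 11 CpGs were called, and in that of the latter 2 of 3.

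Lower methylation in OLIG2 F1 was seen at Chr1:9652517, 4999 bp from LOC116408416, annotated as a V segment, with 0.477 to 0.582 against 0.834 to 0.982. Its neighbour Chr1:9652554, 37 bp away, was among the CpGs removed by the filter and was at 0 in OLIG2 F1 frogs 1 and 3. The single CpG of its region at Chr1:4705287, 11180 bp from LOC116408260, had 0.497 to 0.678 in OLIG2 F1 and 0.824 to 0.953 in CMV MEM GFP. Chr5:52772691, inside tmem181, had a median of 0.357 (0.272 to 0.501) against 0.640 (0.591 to 0.668), and all 3 CpGs of its region were called. The CpG Chr2:68054564, 64877 bp from kiss1, the kisspeptin precursor gene, lay at 0.645 ± 0.028 (SD, n = 6) against 0.869 ± 0.027 (SD, n = 13), a difference of -1.88 ± 0.15 (SE) on the log2 logit scale (limma, adjusted p = 1.48e-08). It was the only called CpG of the 8 in its region. In Chr7:11226114, 11301 bp from LOC105945348, the values were 0.179 to 0.286 against 0.328 to 0.634, in Chr1:22532471, inside cgl.1, 0.510 to 0.570 against 0.649 to 0.797, and in Chr9:25070301, inside LOC493382, 0.684 to 0.761 against 0.780 to 0.955. In the regions of these CpGs 1 of 2, 2 of 2 and 1 of 7 CpGs were called, in this order.

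**Figure D3:**
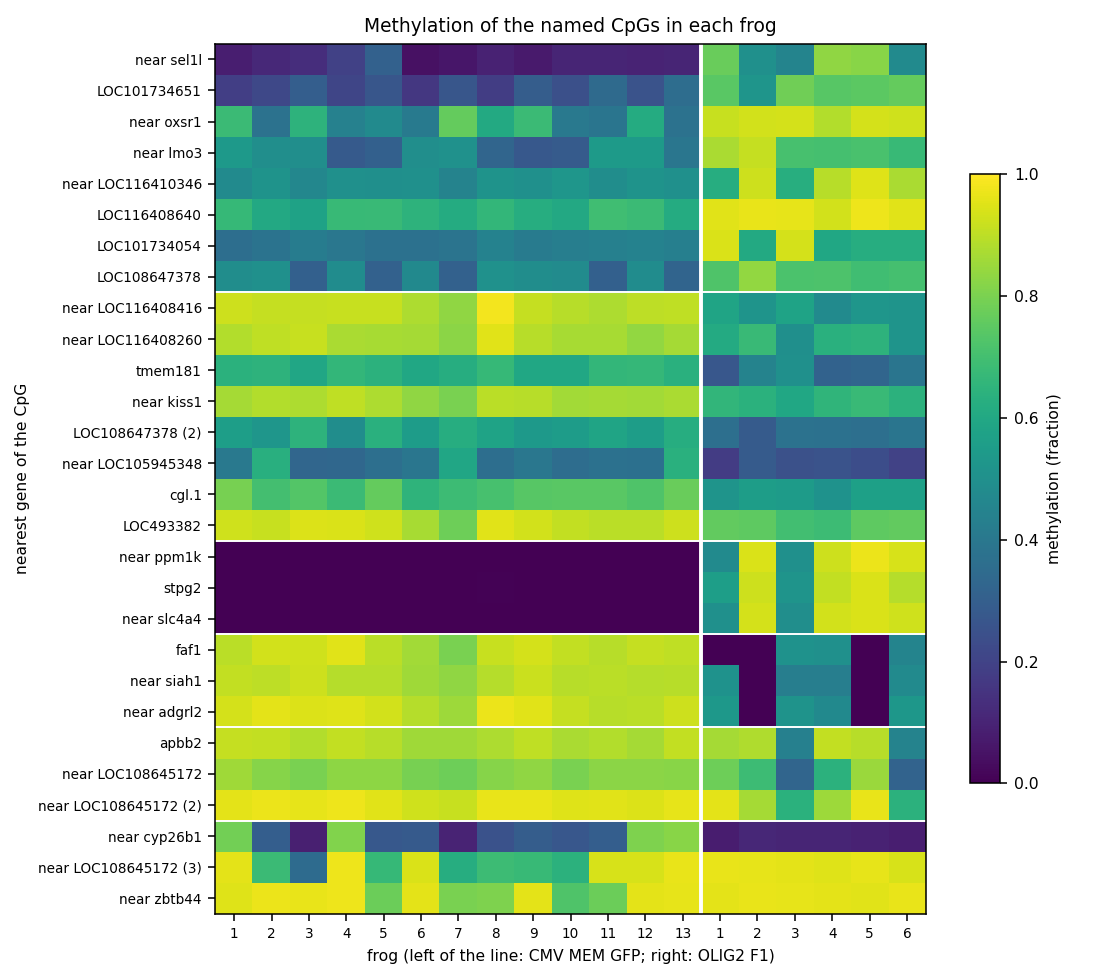
Methylation (fraction, colour) of the CpGs named by rule (rows, by nearest gene, with near for CpGs outside its span) in each frog (columns, CMV MEM GFP left of the vertical line and OLIG2 F1 right of it). From the top, blocks hold the graded CpGs higher and lower in OLIG2 F1, then the CpGs removed by the filter, higher and lower. The lowest blocks hold the CpGs of wider spread in OLIG2 F1 and in CMV MEM GFP. The repeated dark cells of OLIG2 F1 frogs 2 and 5 near siah1 and adgrl2 are values of 0.

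Regions were compared by the mean log2 logit of their CpGs. Of 2445 regions, 236 (9.65%) were called, 131 higher (5.36%) and 105 lower (4.29%) in OLIG2 F1. Without the CpGs that the filter removes, 92 of 2222 regions were called, 41 higher and 51 lower. More than 1 CpG was called in 83 of the 2445 regions, of which 1049 held a single CpG and could not count. In 66 of the 83 all called CpGs had the same direction, and in 17 they had both. These counts include CpGs that the filter removed. Neighbouring CpGs share reads, so that a shared direction is not independent evidence and was not tested.

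The region with the most called CpGs lay in LOC116406940 on chromosome 8, at Chr8:143121389 to 143121543. Of its 14 CpGs, 11 were called and all 11 were lower in OLIG2 F1. The mean over the region ran from 0.436 to 0.651 in CMV MEM GFP, with a median of 0.639, and was 0.411, 0.511, 0.384, 0.484, 0.299 and 0.370 in the OLIG2 F1 frogs. Frogs 7 and 8 of CMV MEM GFP, with 0.436 and 0.510, overlapped with OLIG2 F1, and the other 11 lay at 0.616 or above. The difference was -1.27 ± 0.21 (SE) on the log2 logit scale (limma, adjusted p = 0.000308). The largest single difference was at Chr8:143121447, with 0.776 ± 0.147 (SD, n = 13) against 0.390 ± 0.078 (SD, n = 6). The 3 CpGs not called were at 0.270 and 0.286, 0.436 and 0.413, and 0.446 and 0.434 in CMV MEM GFP and OLIG2 F1.

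Near lmo3, a gene of a LIM-only transcription cofactor, 6 of the 7 CpGs of a region 3195 bp from the gene's span were called, all higher in OLIG2 F1. The probe shown above for lmo3 repeats a short unit, and the placement of reads in it was not tested. The mean over the region was 0.515 to 0.686 in CMV MEM GFP and 0.756 to 0.901 in OLIG2 F1, with no overlap and a difference of 1.51 ± 0.23 (SE) on the log2 logit scale (limma, adjusted p = 0.000141). Frogs 4, 5, 8, 9, 10 and 13 of CMV MEM GFP lay between 0.515 and 0.576 and the other 7 between 0.645 and 0.686. OLIG2 F1 frogs 1 and 2 lay at 0.880 and 0.901, above 0.756 to 0.799 in the other 4. The 1 CpG without a call, Chr3:422171, was at 0.868 ± 0.019 (SD, n = 13) and 0.852 ± 0.020 (SD, n = 6).

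In trpm4, which encodes a calcium-activated cation channel, 8 of 19 CpGs within 161 bp were called, all higher in OLIG2 F1. OLIG2 F1 was split here. Its frogs 3 and 4 had region means of 0.611 and 0.604, within the 0.579 to 0.616 of CMV MEM GFP, and the other 4 had 0.699 to 0.716. The region difference was 0.69 ± 0.13 on the log2 logit scale (SE, limma, adjusted p = 0.0015). It is a mean over all 19 CpGs, and its value without the filter-removed ones is not given here. At a CpG near 0 in a strain, the log2 logit depends on the offset of 0.001. The region held 2 CpGs that the filter removed, and at Chr7:117789955 methylation was 0.0026 ± 0.0020 (SD, n = 13) in CMV MEM GFP and 0.332 ± 0.250 (SD, n = 6) in OLIG2 F1, where the same frogs 3 and 4 had 0.0116 and 0.0109 and the other 4 had 0.463 to 0.534.

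**Figure D4:**
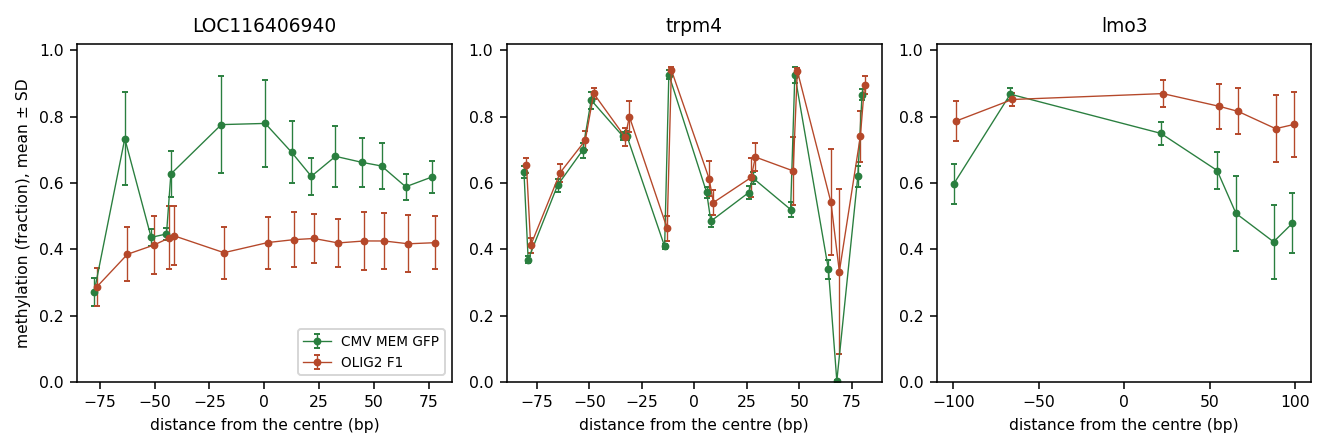
Mean methylation (fraction, vertical axes, error bars 1 SD) of each CpG against its distance from the centre of the region (bp, horizontal axes) in CMV MEM GFP (green, n = 13) and OLIG2 F1 (red, n = 6), for the 3 regions with the most CpGs called in 1 direction. OLIG2 F1 was lower at 11 of 14 CpGs in LOC116406940, higher at 8 of 19 in trpm4 and higher at 6 of 7 near lmo3.

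The gene olig2 itself, which encodes a transcription factor of oligodendrocytes and motor neurons, lies on chromosome 2 and had no measured CpG close by. The nearest, Chr2:14469101, is 468043 bp away and was at 0.270 ± 0.041 (SD, n = 13) in CMV MEM GFP and 0.254 ± 0.052 (SD, n = 6) in OLIG2 F1 (limma, adjusted p = 0.736). Of 13 genes of the oligodendrocyte lineage, 1, the homeobox gene nkx2-2, had CpGs within 5000 bp, and 0 of its 2 CpGs were called. Among 15 genes that write, read or remove DNA methylation, 3 had CpGs. These were dnmt1, the maintenance methyltransferase, tet2, which oxidises methylcytosine, and uhrf2, and 0 of their 4 CpGs were called. The widest ranges were at Chr3:137119998 in dnmt1, removed by the filter, with 0.00544 to 0.794 in CMV MEM GFP and 0.00226 to 0.844 in OLIG2 F1. Of 92 skin and pigment genes, 12 had 27 CpGs, of which 1 was called. It lay in the collagen gene col19a1, Chr5:93382716, at 0.713 ± 0.047 (SD, n = 13) against 0.572 ± 0.104 (SD, n = 6), lower by 0.89 on the log2 logit scale with an SE of 0.21 (limma, adjusted p = 0.0104), and its groups overlapped (0.631 to 0.791 and 0.437 to 0.673). In pmel and oca2, which act in melanin formation, 0 of 9 CpGs were called. For nkx2-2, the DNA methylation genes and this pair, 0 CpGs had an unadjusted p under 0.05 in limma and 0 were called by the exact rank-sum test. Over all CpGs the share called was 7.4%, and these lists are too short to be set against it.

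Of 22 CpGs at the array of rnf14 genes on chromosome 3, named for a RING finger protein, 3 were called, all lower in OLIG2 F1. Over all CpGs 7.4% were called in either direction and 3.33% were called lower, and this list too is short. Chr3:37433098, 43 bp from rnf14.3, was at 0.312 ± 0.036 (SD, n = 13) and 0.202 ± 0.055 (SD, n = 6), and its neighbour Chr3:37433079 at 0.142 ± 0.022 and 0.086 ± 0.029 (limma, adjusted p = 0.0019 and 0.00268). Chr3:36676488, 177 bp from rnf14.2, was at 0.477 ± 0.047 and 0.379 ± 0.054 (limma, adjusted p = 0.0193). The CpG of cop1, a ubiquitin ligase gene, at Chr4:98635904 was at 0.601 ± 0.105 (SD, n = 13) and 0.463 ± 0.082 (SD, n = 6) and was not called (limma, adjusted p = 0.0934).

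The spread among frogs was compared by limma on the absolute deviations of the log2 logit from the strain mean. At 359 CpGs (5.34% of 6717) it differed, and it was wider in OLIG2 F1 at 211 (3.14%) and in CMV MEM GFP at 148 (2.2%). The filter had removed 173 of the 359. Counted over all 6717 CpGs without a test, the SD was larger in CMV MEM GFP at 4862, so that the called CpGs do not give the general direction. CMV MEM GFP frogs 6 and 7 had the lowest mean methylation over all CpGs, 0.778 and 0.743. No count of SDs without this pair is given here, and their part in the 4862 was not tested. Deviations from the strain median in place of the mean gave 66 CpGs, 64 wider in OLIG2 F1, so that the count depends on this choice. Of the CpGs named for spread, Chr1:32800309 alone was called under that choice.

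At Chr1:36685471, inside apbb2, whose product binds the amyloid precursor protein, CMV MEM GFP lay between 0.856 and 0.911, whereas OLIG2 F1 frogs 3 and 6 had 0.434 and 0.447 and the other 4 had 0.864 to 0.909. The same frogs 3 and 6 were lowest at Chr1:32800309 and Chr1:32787978, both nearest to LOC108645172, with 0.325 and 0.318 at the former against 0.644 to 0.848 in their strain mates, and 0.640 and 0.641 at the latter against 0.853 to 0.969. Wider spread in CMV MEM GFP was called at Chr1:14999556, 204055 bp from cyp26b1, which encodes an enzyme that breaks down retinoic acid. Frogs 1, 4, 12 and 13 had 0.787 to 0.823, frogs 3 and 7 had 0.089 and 0.099, and the other 7 lay between 0.253 and 0.30, while all OLIG2 F1 frogs lay between 0.080 and 0.111. At Chr7:70122620, 9838 bp from the zinc finger gene zbtb44, frogs 5, 7, 8, 10 and 11 had 0.725 to 0.808 and the other 8 had 0.951 to 0.973, as did OLIG2 F1 with 0.954 to 0.966. At Chr1:33100278 CMV MEM GFP ran from 0.348 to 0.974 and OLIG2 F1 from 0.940 to 0.965. The adjusted p of the spread was 1.99e-05 in apbb2, 4.91e-05 near zbtb44 and 0.027 near cyp26b1 (limma). The call near cyp26b1 was lost without any one of CMV MEM GFP frogs 1, 4, 12 and 13 or OLIG2 F1 frogs 1, 3, 4, 5 and 6 (limma, adjusted p = 0.0502 to 0.138). That at Chr1:32787978 was lost without any one of CMV MEM GFP frogs 1, 5, 10, 11, 12 and 13 or OLIG2 F1 frogs 1 and 5 (adjusted p = 0.0532 to 0.0989).

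Averaged over all CpGs, the strains overlapped. Mean methylation ran from 0.743 to 0.818 in CMV MEM GFP, with a median of 0.804, and from 0.801 to 0.822 in OLIG2 F1, with a median of 0.811. The means were 0.80 ± 0.021 (SD, n = 13) and 0.812 ± 0.008 (SD, n = 6), a difference of 0.0127 that did not exceed the spread (two-sided exact permutation p = 0.162). Over the CpGs left by the filter the difference was 0.00456 (exact permutation p = 0.668). CMV MEM GFP frogs 6 and 7 had the lowest means, 0.778 and 0.743, and the highest mean CpG depths, 1005 and 1103. Over the 13 CMV MEM GFP frogs mean methylation fell with depth (Pearson r = -0.746, permutation p = 0.00197, Spearman rho = -0.659, permutation p = 0.0172, and adjusted p = 0.00394 and 0.0343 over 2 relations). Leaving out the pair of frogs most distant from the median depth gave r = -0.663 (permutation p = 0.025, 11 frogs). Mean CpG depth was 395 to 1103 in CMV MEM GFP and 467 to 748 in OLIG2 F1. With depth held constant the difference was 0.0025 (permutation of the groups on residuals after depth, approximate p = 0.702). The part of depth in the low means of frogs 6 and 7 was not tested.

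The first principal component of the 19 frogs over all CpGs held 34.5% of the variance and separated the strains, from 0.19 to 4.19 in CMV MEM GFP and from -5.56 to -4.92 in OLIG2 F1. Over the CpGs left by the filter it held 23.2% and ran from 0.18 to 2.24 and from -3.24 to -1.99. Distances between frogs are given as the root mean square difference over CpGs. The median was 0.0879 over the 78 pairs within CMV MEM GFP, 0.0886 over the 15 pairs within OLIG2 F1 and 0.127 over the 78 pairs between the strains. After the filter these medians were 0.0586, 0.0607 and 0.0745. No pair of frogs had identical values.

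An elastic-net clock was trained on the 173 frogs of all other groups, from 32 tanks, and kept 345 of the 6175 CpGs offered. Both strains were predicted older than they were. The error of this clock on other tanks left out of training is not given here, so this is not shown to be particular to these strains. Predicted age ran from 3.10 to 5.07 years in CMV MEM GFP, with a median of 4.12, and from 3.29 to 6.01 years in OLIG2 F1, with a median of 4.72. The mean was 1.88 ± 0.64 years (SD, n = 13) above actual age in CMV MEM GFP and 2.28 ± 0.93 years (SD, n = 6) in OLIG2 F1, and all 19 frogs were above. Predicted age was 0.551 years higher in OLIG2 F1 (two-sided exact permutation p = 0.148), and the groups overlapped. The 58 days by which OLIG2 F1 was older were not taken off. This value depended on how the clock was built. Clocks on the logarithm of age, on adults alone and with an l1_ratio of 0.1 gave 0.884, 0.798 and 0.782 years (exact permutation p = 0.0199, 0.0386 and 0.0492), and a clock offered all CpGs gave -0.169 years (exact permutation p = 0.533). An l1_ratio of 0.9 gave 0.440 years (exact permutation p = 0.311). With 5-fold cross-validation over tanks the same alpha was chosen, so that this clock and its 0.551 years are those of the main clock and no separate check. Without OLIG2 F1 frog 2, the lowest of its strain at 3.29 years, the difference was 0.841 years (exact permutation p = 0.0254), and without frog 3, the highest at 6.01 years, it was 0.297 years (exact permutation p = 0.414).

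**Figure D5:**
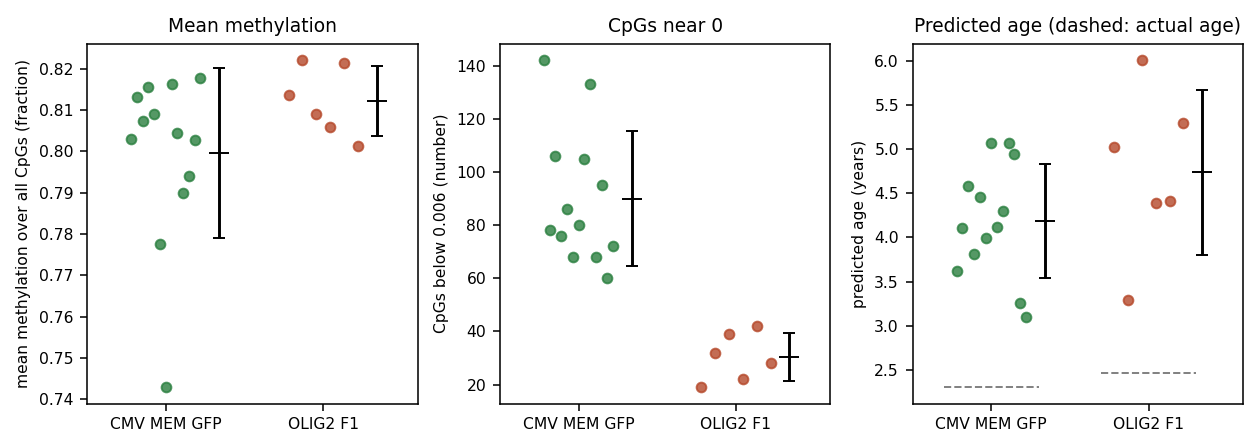
Each point is a frog, with the mean and SD of each strain in black (CMV MEM GFP, n = 13, and OLIG2 F1, n = 6). From left to right the vertical axes give mean methylation over all CpGs (fraction), the number of CpGs below 0.006 and predicted age (years), where dashed lines mark actual age. The strains overlap in the outer panels, and in the middle panel the lowest CMV MEM GFP frog, at 60 CpGs, lies above the highest OLIG2 F1 frog, at 42.

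CpGs that gain or lose methylation with age were listed from the 168 adults of other groups by their Spearman correlation with age at an adjusted p under 0.001. Of 374 gaining CpGs, 39 were higher and 31 lower in OLIG2 F1, together 18.7%. Of 2486 losing CpGs, 104 were higher and 88 lower, together 7.72%, beside 7.4% of all CpGs. Both lists were drawn from all CpGs, also those that the filter removed, of which 26% were called. The lists were not split by the filter. The filter-removed CpGs shown near ppm1k, in stpg2 and near slc4a4 are among the losing ones. The median difference in mean fraction was 0.0012 over the gaining and 0.0048 over the losing CpGs, and 0.0078 over all. With the 300 CpGs of strongest correlation over tank means in each direction, the shares were 16% and 15%, and the medians 0.0073 for gaining and -0.0011 for losing CpGs, so that neither the contrast of shares nor the sign for losing CpGs held. Taking off the change that each CpG's age slope gives over 58 days left 494 called CpGs, 486 of them among the 497.

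Adult groups of 547 to 937 days were set beside the 2 strains. These were TYR at 547 days (7 frogs), Xtr.Tg(CMV:Aequorin,GFP)NXR at 726 days (9 frogs) and WT Superman at 937 days (6 frogs), the last pair on the other lane. Over the CpGs left by the filter, the root mean square difference of group means was 0.0495 between CMV MEM GFP and OLIG2 F1. It was 0.0558 to 0.0725 from CMV MEM GFP to these groups and 0.0534 to 0.0658 from OLIG2 F1. At 106 called CpGs that the filter left and that were higher in OLIG2 F1 by at least 0.1, the median of the 3 groups lay nearer to OLIG2 F1 at 74 and nearer to CMV MEM GFP at 32. At the 93 that were lower, it lay nearer to CMV MEM GFP at 57 and nearer to OLIG2 F1 at 36. Near kiss1 the 3 groups were at 0.810, 0.909 and 0.779, on the side of CMV MEM GFP at 0.869. At Chr4:23562293 they were at 0.331, 0.332 and 0.360, beside 0.359 in OLIG2 F1 and 0.574 in CMV MEM GFP.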

How the data were processed

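Targeted bisulfite sequencing libraries of 19 frogs were analysed, 13 of CMV MEM GFP and 6 of OLIG2 F1, with the other frogs of the series for the filter, the clock and the age lists. With BiSulfite Bolt the authors mapped trimmed reads to genome v10.0. They kept CpGs with 100 or more reads in each of the 192 frogs and deposited 1 methylation fraction per CpG and frog. These came with no further normalization, no pooling of frogs into 1 value and no read counts. The deposited fractions of columns named by digits were recorded as another unit for the unit check only. Submitters' processing notes name fastp and SAMtools 1.11. Beyond that minimum the reads behind each fraction are unknown, so no counting intervals are given. Lane, tank, total reads and mean CpG depth came from the study's sample table. The hybridization pool of each frog is not given in the sources used here.

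Mixtures for the filter were fitted in scikit-learn 1.9.0 (GaussianMixture, BIC difference above 90, a value below 0.006). CpGs, regions and spread were tested with limma 3.58.1 in R 4.3.3. Single values per frog were tested over all 27132 assignments of frogs to groups, and correlations with 100000 permutations. The clock was an elastic net (l1_ratio 0.5, alpha by leave-one-tank-out). Python 3.11.15, numpy 2.4.6, scipy 1.17.1 and pandas 2.3.3 were used. Genes are those of the RefSeq annotation of UCB_Xtro_10.0, which gave spans but not exons here. Probe sequences were those of 1980 probes listed by the study. Fits were tested on simulated data.

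The CpGs named are the 8 called CpGs of largest difference in each direction, 1 per region, among those left by the filter with no overlap and all values at 0.006 or above, the 3 of largest difference in each direction among those removed, the 3 regions with most CpGs called in 1 direction, the 3 CpGs of largest SD ratio in each direction among those called for spread and left by the filter, and CpGs within 5000 bp of listed genes. Runs of CpGs at 3 levels were picked after their values were seen. The strains were defined by their labels, but they, the lists and the tests were chosen with earlier results of these data known. Frogs of a strain shared a tank, so p-values measure the spread among tank mates.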

Additional observations from a re-analysis of the deposited data

Results flagged for a closer look

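In OLIG2 F1, the gap between a frog and the nearest of the other 5 was divided by the range of the strain. It exceeded Dixon's critical value for 6 samples at 3 of 30 results tested. Chance alone flags about 1 in 20 where results are independent and normally spread. The results are not all independent, since 2 of the 3 flagged CpGs lie 615 bp apart, so the 3 are not set against that rate. All 3 concern OLIG2 F1 frog 2 and CpGs on chromosome 4. At Chr4:28533790, inside LOC101734651, frog 2 had 0.523 and the others 0.741 to 0.785. At Chr4:23562908, inside LOC108647378, it had 0.838 and the others 0.693 to 0.725. At Chr4:23562293, in the same gene, it had 0.288 and the others 0.363 to 0.390.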

How the results depend on the processing

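No paired analysis was possible because the frog numbers of the strains carry no pairing. The 497 called CpGs became 811 (521 higher in OLIG2 F1) when all adults shared 1 estimate of the spread and 290 (163 higher, 127 lower) at an adjusted p under 0.01. With only the CpGs left by the filter 180 were higher. CpGs lower in OLIG2 F1 numbered 432 when centred, 343 with depth as a covariate and 140 by an exact rank-sum test, against 224. Leaving out 1 frog gave 392 to 535 CpGs (210 to 292 higher, 177 to 270 lower), 179 to 240 regions (98 to 132 higher, 80 to 118 lower) and 285 to 399 CpGs for spread (161 to 254 wider in OLIG2 F1, 124 to 170 in CMV MEM GFP). The CpGs left by the filter alone gave 92 regions (41 higher, 51 lower) and 154 CpGs for spread (95 wider in OLIG2 F1, 59 in CMV MEM GFP). Deviations from the median over all CpGs gave 66 (64 and 2). The difference in predicted age was 0.884, 0.798, 0.782, -0.169, 0.440 and 0.551 years under the clocks named above, the last being the main clock again. Without 1 frog it was 0.297 to 0.841 years, and that in mean methylation 0.0079 to 0.0148. CpGs per frog below 0.006 differed by -62.1 to -55.3. Of CpGs losing methylation with age, 15.0% were called among the 300 listed by tank means. Without both CMV MEM GFP frogs of lowest mean, chosen after the data were seen, 552 CpGs were called (255 higher, 297 lower). Of the 497 calls, 446 were kept when centred, 412 with all adults in the fit and 333 by the exact rank-sum test. The 28 CpGs named by difference or spread kept their call and direction in 770 of 792 cases. They had been picked for large differences or SD ratios among called CpGs, so that this says little about the other calls. The 22 losses were all calls for spread, near cyp26b1 (10) and at Chr1:32787978 (9) for the most part. The cause of these changes was not tested.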
